A study of Mus musculus with 12 samples.

Results

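The etoposide response of TFEB/TFE3 DKO MEFs was followed in 6 RNA-Seq libraries, 3 of control cells and 3 of cells taken after 8 hr in 100 µM etoposide. These libraries were chosen by the genotype and treatment in their titles and are 6 of the 12 libraries of the series. All 24421 genes of the count table were considered, and 15220 had enough counts to be tested. Etoposide raised most known p53 targets in the DKO MEFs and brought low counts to many genes that had none in the control cells. It lowered most listed sterol synthesis, contractile, matrix, early response, chemokine, mitotic and histone transcripts. For the mitotic list the margin of falls over rises depended on scaling.

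The series asks how the transcription factors TFEB and TFE3 shape the transcriptome of fibroblasts with DNA damage. It holds 4 groups of 3 libraries, Null and TFEB/TFE3 DKO MEFs, each as control and after 8 hr etoposide. MEFs are mouse embryonic fibroblasts, and Null, the labels' name, was taken here to be the genotype that the paper calls WT. The Null libraries were used here for the shared estimate of spread and for the test of whether the DKO response differed from theirs. DKO MEFs were made by CRISPR inactivation of both genes and are represented by 1 line, as is Null, so effects of the genes and of the line cannot be told apart. According to the paper both lines come from MEFs immortalised with SV40, which can affect the stability of p53. The labels call the control cells untreated, while the methods describe DMSO. Nothing in the labels says that the replicates of a group were separate cultures, so the p-values measure only the spread between these samples, which may be technical. Counts on genes were 74826945, 104120871 and 66749645 in the control libraries and 45577023, 68441372 and 94388705 in the etoposide libraries, with 2.28 times as many in the largest as in the smallest library. Levels are given in CPM, counts divided by the TMM-scaled library size (the usual CPM of edgeR), in the order of replicates 1, 2 and 3. Changes are log2 fold changes of etoposide against control with their standard error (SE).

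Etoposide traps topoisomerase II on DNA after it has cut both strands. The breaks activate the kinases ATM and ATR and through them p53, a transcription factor that raises genes of cell cycle arrest, DNA repair and apoptosis. TFEB and TFE3 are related factors that bind the promoters of lysosomal and autophagy genes and are held in the cytoplasm by mTORC1, the kinase complex that senses nutrients.

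Both inactivated genes were still transcribed in the DKO MEFs. Tfeb (chromosome 17, 47737030 to 47792419) was measured at 4.60, 6.09 and 4.68 CPM in the control libraries and at 1.92, 1.61 and 2.20 CPM in the etoposide libraries. In Null controls it stood at 38.9, 39.2 and 42.1 CPM, above every DKO library. Tfe3 (chromosome X, 7762560 to 7775202) was measured at 94.1, 93.0 and 91.0 CPM in DKO controls and 70.7, 71.2 and 63.4 CPM in the etoposide libraries. In Null controls Tfe3 stood at 115, 109.9 and 114 CPM. Counts over a whole gene do not show whether a transcript still encodes a protein, so the level of Tfe3 neither passes nor fails the label. Both transcripts were lower in every etoposide library than in every control library, with log2 fold changes of -1.42 (SE 0.14) and -0.44 (SE 0.04). For Tfeb the adjusted p was 4.59e-08 in the quasi-likelihood test of edgeR (Benjamini-Hochberg adjustment), which is the test behind every statement that a gene rose or fell, and 3 of 3 etoposide libraries lay lower.

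The cells carried the transcripts of fibroblasts, apart from Thy1. Of 12 fibroblast markers, 11 were well expressed in the control cells and all 11 of these fell after etoposide. Of all genes tested 31.5% fell and 43.7% rose, and of those averaging 50 CPM or more 53.1% fell. Vim, the intermediate filament of mesenchymal cells, was measured at 2679, 2752 and 2656 CPM in control and 807, 790.0 and 807 CPM in etoposide libraries. Prrx1, a limb mesenchyme factor, went from 352, 358 and 366 CPM to 75.3, 78.7 and 74.9 CPM, and the receptor gene Pdgfra from 187, 197 and 207 to 46.8, 44.3 and 47.9 CPM. In these genes the etoposide libraries all lay below the controls (exons of Pdgfra overlap genes on the opposite strand). Thy1, a surface marker of many fibroblasts, stayed at or under 1 CPM in all 6 libraries. The 12 markers summed to 9871, 10260.4 and 9921 CPM in the control libraries and 4063, 4034 and 3861 CPM in the etoposide libraries. In bulk samples fewer cells of a type and less RNA per cell cannot be told apart.

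Most markers of other cell types were low. All 5 endothelial and all 4 adipocyte markers, 6 of 8 macrophage and other blood cell markers, 5 of 8 epithelial markers, 4 of 5 skeletal muscle markers and 3 of 6 neural markers were at or under 1 CPM in each of the 6 libraries, and none of the markers was at 0 in all 6. The epithelial markers summed to 36.3, 37.8 and 36.1 CPM in control and 16.0, 16.6 and 16.4 CPM in etoposide libraries, most of it Krt19, and Krt8 was measured at 4.26, 4.03 and 5.45 CPM against 0.668, 0.355 and 0.516 CPM. While these 2 fell, 4 epithelial markers rose at low levels, Cdh1 from 0.767, 0.924 and 0.419 CPM to 1.32, 1.23 and 1.22 CPM and Epcam, Krt5 and Krt14 at under 1 CPM in every library. The blood cell markers summed to 9.31, 7.93 and 7.58 CPM against 14.95, 12.5 and 15.03 CPM, led by Cd14 at means of 6.11 and 9.77 CPM, while Adgre1 and Lyz2 had 0 counts in the control libraries. The neural markers summed to 143, 148 and 149 CPM against 177, 173 and 189 CPM, most of it Nes, an intermediate filament gene that cultured mesenchymal cells also express, and most of the rest Tubb3, a tubulin gene, which rose by 1.00 (SE 0.06). Sox2, a factor of neural precursors, fell from 0.812, 1.21 and 1.09 CPM to 0.202, 0.0819 and 0.228 CPM, and Syt1, with 0 counts in every control library, was at 0.364, 0.328 and 0.238 CPM. The endothelial sums were at most 0.211 CPM in control and at least 1.46 CPM in etoposide libraries, and the skeletal muscle sums at most 0.489 and at least 2.66 CPM, mainly Des. The adipocyte sums were at most 0.0451 CPM in control and at least 0.364 CPM in etoposide libraries. Exons of Krt5 and Krt8 overlap genes on the opposite strand. Whether cells of another type contributed to any change was not tested.

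Etoposide changed most of the transcriptome of the DKO MEFs. Of the 15220 genes tested, 11435 (75.1%) passed an adjusted p of 0.05, with 6645 (43.7%) higher and 4790 (31.5%) lower. At least 2-fold rises were seen in 2718 genes (17.9%) and at least 2-fold falls in 1207 (7.93%). The etoposide and control libraries did not overlap in 11587 genes (76.1%). The first principal component of the 6 libraries held 82.6% of the variance and placed the control libraries at -71.7, -70.8 and -74.4 and the etoposide libraries at 71.7, 71.6 and 73.6, while the second, with 5.40%, set etoposide replicate 1 (-36.4) apart from replicates 2 and 3 (22.7 and 13.4). The higher genes outnumbered the lower ones by a margin that depended on scaling and on the genes tested. With library size alone, 9316 were higher and 3006 lower, and the median change over all genes, 0.14 in log2, shifted by 0.27. With only the 6 DKO libraries in the fit, which left 13629 genes to test, 5454 were higher and 5019 lower, and over the genes tested in both fits the median shifted by -0.03. TMM factors were 0.884 to 0.893 in the control libraries and 1.07 to 1.08 in the etoposide libraries, so every level below is relative to a scale that itself separates the groups.

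The rises and falls were spread unevenly over expression levels. Among the 3110 genes with a mean under 0.5 CPM over the 6 libraries, 1860 (59.8%) rose and 69 (2.22%) fell. The filter admits a gene that is high enough in any of the 4 groups, so a gene low in DKO controls can enter through a group in which it is higher, and the excess of rises among low genes is not free of that selection. Among the 5021 genes that reached 50 CPM on average, 1567 (31.2%) rose and 2666 (53.1%) fell, with a median log2 fold change of -0.13. In between, the medians were 0.69 from 0.5 to 1 CPM (598 genes), 0.28 from 1 to 10 CPM (2273 genes) and 0.05 from 10 to 50 CPM (4218 genes). Of the 2718 genes that rose at least 2-fold, 1836 had a mean under 0.5 CPM, a tally under the same selection (1766 genes rose at least 2-fold with only the 6 DKO libraries), and over the 11512 genes with at least 1 CPM the counts were 4483 higher and 4645 lower. The low genes carried little RNA, since the 3110 genes together summed to 250.3, 271 and 256 CPM in the control and 703, 699 and 707 CPM in the etoposide libraries. Their median was 2.37, or 1.63 when the 673 of them without a count in any control library were set against a floor of 3 counts in each control library. Most members of the lists below reached 1 CPM on average. Over the 11512 genes at that level the median was 0.0006, with 38.9% higher and 40.3% lower. The 0.14 set beside list medians below is that of all genes tested, low ones included.

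**Figure D1:**
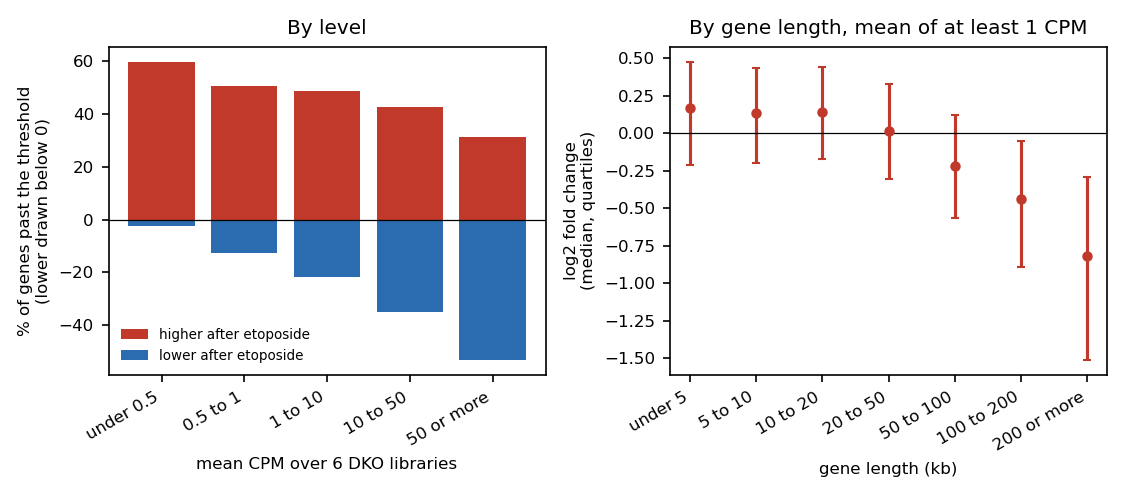
The left panel plots the percent of genes higher and lower after etoposide in DKO MEFs in 5 bins of mean CPM over the 6 libraries, with 59.8% higher under 0.5 CPM and 53.1% lower at 50 CPM and above. The right panel plots the median log2 fold change, with quartiles, in bins of gene length for genes that reach 1 CPM on average, from 0.17 under 5 kb to -0.82 above 200 kb.

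Many genes had counts only after etoposide. At least 1 count was found for 14940, 15200 and 14809 genes in the control libraries and for 17912, 18588 and 19159 genes in the etoposide libraries. When all libraries were thinned to the size of the smallest, the numbers were 14545, 14601 and 14512 against 17912, 18042 and 18233, so each etoposide library still held more genes than each control library at an equal total of counts on genes. By the TMM factors an unchanged gene has more counts in an etoposide library than in a control library of the same total, so the depth was not equal for such a gene. At 10 counts or more, the thinned libraries held 12325, 12390 and 12322 genes in control and 13598, 13572 and 13596 after etoposide. Of 8221 genes at 0 in every control library, 1517 had a count in every etoposide library, 1386 of them protein coding. The converse, 0 in every etoposide library and a count in every control library, was found for 7 genes, 5 of them microRNA genes. The levels reached were low. The 1517 genes took 0.0166, 0.0149 and 0.0149% of the counts of the etoposide libraries, at most 84 counts each, and 98 of them reached 10 counts in every etoposide library. By the lowest count in any etoposide library, Zfp423, a zinc finger factor of mesenchymal precursors, led them with 57, 56 and 46 counts. These lay at least 9.08-fold above a floor of 3 counts in each control library. Ppp2r2c, with 44, 52 and 64 counts, lay at least 12.6-fold above that floor. In Null MEFs 571 of the 1517 genes likewise went from 0 in every control library to a count in every etoposide library, and 176 were counted in every Null control library. A part of DNA or unspliced RNA in these low counts was not tested. The share of all table lines on no feature was 21.1, 20.2 and 20.5% in control and 22.3, 22.1 and 21.2% in etoposide libraries.

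**Figure D2:**
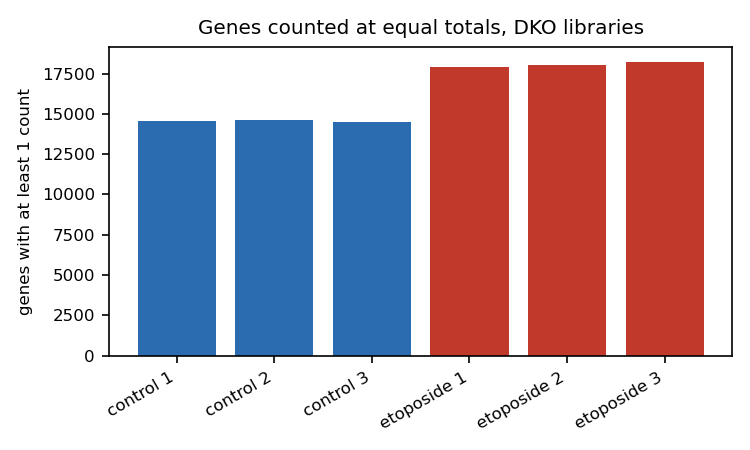
Bars show the number of genes with at least 1 count in each DKO library after thinning to an equal total of counts on genes, 14512 to 14601 in the control libraries and 17912 to 18233 in the etoposide libraries. The vertical axis starts at 0.

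Of 14182 protein-coding genes 6202 rose and 4671 fell, with a median of 0.12. Of 190 lincRNA genes 99 rose and 27 fell, with a median of 0.82, and of 165 antisense genes 91 rose and 13 fell, with a median of 0.95, beside 43.7% and 31.5% of all genes tested. These classes are low and fall under the selection by the filter described for low genes, with median levels of 0.481 and 0.428 CPM against 25.3 CPM for protein-coding genes, and the rise of low genes and that of their class cannot be told apart. Of 155 processed transcripts 80 rose and 21 fell. Small RNA genes, which are poorly captured by libraries of this kind, rarely passed the test, with 22 of 98 snoRNA genes higher and 4 lower, and 13 of 96 microRNA genes higher and 11 lower.

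Long genes had lower fold changes than short ones. Among the genes that reached 1 CPM on average, the median log2 fold change was 0.17 for the 1335 genes under 5 kb, 0.14 from 5 to 10 kb and from 10 to 20 kb, 0.02 from 20 to 50 kb, -0.22 from 50 to 100 kb, -0.44 from 100 to 200 kb and -0.82 for the 499 genes above 200 kb. Of those 499 genes 8.62% rose and 80.0% fell, beside 38.9% and 40.3% of all genes at 1 CPM or more. Without the limit of 1 CPM the medians ran from 0.24 under 5 kb to -0.35 above 200 kb (750 genes), where the upper quartile was 1.21. With library size alone these medians ran from 0.51 to -0.08, so only the order of the bins, not the sign of the middle ones, is free of the scaling. By summed exon length in place of gene length the medians fell from 0.26 under 2 kb to -0.40 above 20 kb. Length is the annotated span on GRCm38. In Null MEFs the medians at 1 CPM or more ran from 0.11 to -0.84 over the same bins. Ext1, a heparan sulfate polymerase gene of over 200 kb, is 1 example, with 739.6, 751 and 774 CPM in control and 80.8, 74.2 and 76.4 CPM in etoposide libraries.

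Most p53 targets rose. Of 40 known targets 33 rose and 5 fell in the DKO MEFs, beside 43.7% and 31.5% of all genes tested. The median log2 fold change was 0.78 beside 0.14, and 17 of the 40 rose at least 2-fold, as did 17.9% of all genes. Cdkn1a (chromosome 17, 29090976 to 29100727), whose product p21 inhibits cyclin-dependent kinases, was measured at 38.4, 39.8 and 40.7 CPM in control and 242, 254 and 227 CPM in etoposide libraries. Its lowest etoposide library lay above 5 times its highest control. The log2 fold change was 2.60 (SE 0.06, adjusted p = 5.14e-17 from the same edgeR test, higher in 3 of 3 etoposide libraries). Ccng1, a cyclin that recruits a phosphatase to MDM2, was measured at 139, 131 and 140.4 CPM against 648, 638 and 686 CPM. Perp, a membrane protein gene of p53-dependent apoptosis, was measured at 28.3, 25.7 and 25.8 CPM against 100.5, 98.8 and 106 CPM, and Ercc5, the nuclease of nucleotide excision repair, at 17.3, 15.8 and 14.5 CPM against 67.7, 65.5 and 63.5 CPM. In all of these the groups were far apart, with log2 fold changes of 2.27, 1.94 and 2.04 (SE 0.04, 0.04 and 0.06).

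Targets with other roles rose by varying amounts. Pidd1, which starts caspase-2 activation, rose by 2.61 (SE 0.12) from 3.58, 4.19 and 3.66 CPM to 25.1, 24.1 and 21.6 CPM. Zfp365, a gene of replication fork stability, rose by 2.51 (SE 0.04) and Dcxr, a sugar reductase, by 2.69 (SE 0.08). The phosphatase Ppm1d, which shuts the damage signal off, rose by 1.13 (SE 0.04), Zmat3 by 1.56 (SE 0.08) and the AKT inhibitor Phlda3 by 1.58 (SE 0.05). Smaller rises were those of Apaf1 (0.78), the core of the apoptosome, the DNA polymerase Polk (0.72), the ribonucleotide reductase subunit Rrm2b (0.75) and the damage recognition genes Ddb2 (0.61) and Xpc (0.52). The long noncoding RNA Trp53cor1, next to Cdkn1a, was measured at 0.135, 0.0326 and 0.0671 CPM in control and 0.971, 1.35 and 1.02 CPM in etoposide libraries.

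A few p53 targets fell or failed the test. Fas (chromosome 19, 34290666 to 34327772), the death receptor, was measured at 39.6, 41.0 and 41.4 CPM in control and 22.0, 21.9 and 22.4 CPM in etoposide libraries. Every etoposide library lay near 22 CPM, below all controls, a log2 fold change of -0.88 (SE 0.06, adjusted p = 1.13e-09 from the same edgeR test, lower in 3 of 3 etoposide libraries). Pmaip1, the BH3-only gene also known as Noxa, was measured at 213, 214 and 227 CPM in control and 215, 220.2 and 223 CPM in etoposide libraries. These ranges overlap, and the log2 fold change of 0.01 (SE 0.05) was not past the threshold, although it was, at 0.28, with library size alone. The kinase gene Plk2 was measured at 507, 488 and 432 CPM against 309, 277 and 297 CPM and fell by 0.69 (SE 0.06), and Plk3 fell by 0.67 (SE 0.05). Gadd45a, a stress sensor that binds PCNA, fell by 0.57 (SE 0.05), and the sestrin gene Sesn2 by 0.27 (SE 0.04), the latter not past the threshold with library size alone. The other sestrin of the list, Sesn1, rose by 0.36 (SE 0.05). Tigar was not past the threshold. Exons of Cdkn1a, Trp53cor1, Plk3, Gadd45a, Rrm2b and Ddb2 overlap a gene on the opposite strand, and since no strand setting of the counting is given in the sources used here, reads of such pairs cannot be told apart.

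**Figure D3:**
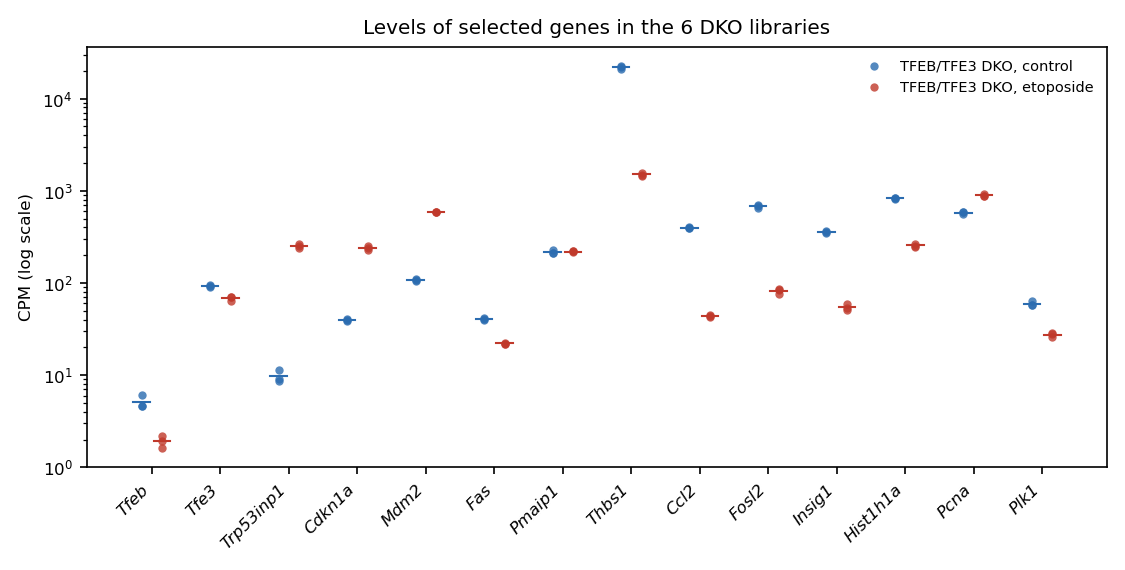
Levels of 14 genes in CPM on a log axis in each of the 6 DKO libraries, with points for libraries and a line for the mean of each group. Cdkn1a moved from 38.4 to 40.7 CPM in control to 227 to 254 CPM after etoposide, while Pmaip1 lay between 213 and 227 CPM in all 6 libraries on the TMM scale.

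Of 13 members of the p53 family and its regulators 4 rose and 7 fell (7 and 3 with library size alone), beside 43.7% and 31.5% of all genes tested, and the median of -0.11 became 0.16 with library size alone. Trp63, the p53 relative of epithelia, was measured at 22.8, 21.9 and 24.2 CPM in control and 3.42, 3.99 and 2.87 CPM in etoposide libraries. It was low in all etoposide libraries, with no overlap and a log2 fold change of -2.76 (SE 0.11). Trp53 was measured at 112, 121 and 117 CPM against 142, 133 and 131 CPM, a rise of 0.21 (SE 0.04). The deubiquitinase Usp7 fell by 0.67 (SE 0.03), the kinase Hipk2 by 0.67 (SE 0.07) and Mdm4, the partner of MDM2, by 0.23 (SE 0.05), the last at 0.05 with library size alone. Wrap53, which overlaps the p53 locus in antisense, rose by 0.44 (SE 0.04). Trp73 had 0 counts in every control library and 0.101, 0.396 and 0.308 CPM in the etoposide libraries, and its exons overlap Trp73os on the opposite strand. Kat5 fell by 0.25 (SE 0.04) but at 0.02 with library size alone, and its exons overlap Rnaseh2c on the opposite strand. Cop1 is not in the table under that name and was not analysed here.

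Of 23 sensor and checkpoint genes 13 rose and 7 fell (17 and 3 with library size alone), with a median of 0.16 beside 0.14 for all genes, of which 43.7% rose and 31.5% fell. Clspn, the adaptor that brings CHK1 to ATR, was measured at 60.9, 60.0 and 61.1 CPM in control and 106, 108 and 113 CPM in etoposide libraries. It stood highest of the list by change, with 0.84 (SE 0.04), followed by Rad1, a clamp subunit, with 0.68 (SE 0.07), Cdc25a, a phosphatase that opens S phase, with 0.67 (SE 0.04) and the kinase Chek2 with 0.63 (SE 0.07). Atm rose by 0.46 (SE 0.05), from 109.5, 109.8 and 110.4 CPM to 146, 149.5 and 157 CPM, and H2afx, the histone that is phosphorylated around breaks, by 0.34 (SE 0.04). Cdc25b, which opens mitosis, was measured at 61.4, 61.0 and 60.4 CPM against 30.3, 25.9 and 28.3 CPM. It fell by 1.12 (SE 0.05), and Wee1, the kinase that holds CDK1 inactive, fell by 0.90 (SE 0.04). Chek1 (0.03, SE 0.04) and Rad9a (-0.06, SE 0.04) were not past the threshold, and they were at 0.30 and 0.22 with library size alone. Exons of Cdc25b, H2afx and Rad9a overlap genes on the opposite strand.

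Of 33 double-strand break repair genes 20 rose and 6 fell (25 and 3 with library size alone), with a median of 0.22 beside 0.14 for all genes, of which 43.7% rose and 31.5% fell. Brca2, a gene of homologous recombination, was measured at 78.9, 76.8 and 73.4 CPM in control and 128, 128 and 132 CPM in etoposide libraries. Fancm, a helicase of the Fanconi pathway, was measured at 41.5, 43.4 and 40.7 CPM against 68.2, 71.1 and 73.3 CPM. In both the groups were well apart, with log2 fold changes of 0.76 (SE 0.05) and 0.76 (SE 0.04). Xrcc3, of the same pathway, rose by 0.89 (SE 0.09), while the Fanconi gene Fancf fell by 0.54 (SE 0.07). The end-joining genes Prkdc, Xrcc4, Lig4 and Nhej1 were not past the threshold. Exons of Brca2, Fancm, Xrcc3 and Fancf overlap genes on the opposite strand.

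The drug's own targets were lower. Top2a, the topoisomerase II of dividing cells, was measured at 937, 934 and 963 CPM in control and 522, 501 and 577 CPM in etoposide libraries, and Top2b, the isoform of all cells, at 301, 293 and 306 CPM against 178, 181 and 195 CPM. Both sets of libraries were apart, with log2 fold changes of -0.82 (SE 0.04) and -0.70 (SE 0.04). Top1 fell by 0.86 (SE 0.05). Tdp2, the enzyme that removes topoisomerase II from DNA ends, was measured at 40.9, 36.9 and 41.2 CPM against 54.7, 54.7 and 56.4 CPM and rose by 0.48 (SE 0.04), while Tdp1 was not past the threshold. Of the 8 genes of the list 3 rose and 3 fell (5 and 3 with library size alone, which turned the median from -0.04 to 0.23), beside 43.7% and 31.5% of all genes tested. The gene Rarb overlaps exons of Top2b on the opposite strand.

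Of 11 pro-apoptotic BCL2 family genes 4 rose and 4 fell (6 and 3 with library size alone), beside 43.7% and 31.5% of all genes tested. Bbc3, also known as Puma, rose by 0.97 (SE 0.06) and Bcl2l11, or Bim, by 0.37 (SE 0.07). Bid, which links caspase-8 to mitochondria, was measured at 65.1, 66.2 and 62.4 CPM in control and 28.2, 26.5 and 26.6 CPM in etoposide libraries. It fell in every library, by 1.25 (SE 0.05), and Bmf and Bok fell by 1.29 (SE 0.14) and 1.07 (SE 0.06). Of the anti-apoptotic genes 4 of 8 were tested and 2 fell, both by 0.85 (SE 0.07 for Bcl2 and 0.04 for Bcl2l1, which encodes BCL-XL). Bcl2l1 was measured at 127, 128 and 126 CPM against 67.6, 71.6 and 72.6 CPM. Mcl1 was measured at 359, 355 and 335 CPM against 329, 332 and 362 CPM, with overlapping groups. With library size alone Mcl1 was at 0.24 and 2 of these genes were higher. Exons of Bid and Bcl2 overlap genes on the opposite strand.

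Among 20 death receptor, adaptor and caspase genes 7 rose and 10 fell (11 and 4 with library size alone, which turned the median from -0.10 to 0.18), beside 43.7% and 31.5% of all genes tested. Casp12, a caspase of the endoplasmic reticulum, was measured at 46.7, 42.3 and 46.2 CPM in control and 11.98, 12.04 and 11.4 CPM in etoposide libraries. The inhibitor of apoptosis Birc3 was measured at 36.4, 36.5 and 36.2 CPM against 12.6, 11.5 and 11.9 CPM. Both fell without overlap, by 1.93 (SE 0.06) and 1.60 (SE 0.06). Diablo, which frees caspases from their inhibitors, rose by 0.67 (SE 0.05). The TRAIL receptor Tnfrsf10b rose by 0.36 (SE 0.05), while its ligand Tnfsf10 fell by 0.66 (SE 0.21), though not past the threshold without etoposide replicate 2 or, at -0.39, with library size alone. The exons of Diablo overlap genes on both strands.

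The CDK inhibitors other than Cdkn1a were mostly lower. Of 7 genes 2 rose, Cdkn1a and Cdkn1c, and 5 fell, beside 43.7% and 31.5% of all genes tested, with a median of -0.56. Cdkn2b, which encodes the inhibitor p15, was measured at 71.8, 65.8 and 66.4 CPM in control and 23.2, 20.05 and 21.7 CPM in etoposide libraries. It fell by 1.65 (SE 0.06), Cdkn1b by 0.86 (SE 0.05) and Cdkn2a, the locus of p16 and ARF, by 0.65 (SE 0.05). Among 27 G1 cyclin, CDK, E2F and pocket protein genes 14 rose and 5 fell (22 and 2 with library size alone), beside 43.7% and 31.5% of all genes tested. Their median was 0.09 beside 0.14. All 27 reached 1 CPM on average, a level at which the median of all genes was 0.0006. Ccne2, a cyclin of the start of S phase, was measured at 74.0, 70.2 and 79.4 CPM against 184, 191 and 211 CPM, and Ccnd2, a G1 cyclin, at 41.8, 39.9 and 39.9 CPM against 104, 123 and 90.5 CPM. Both rose by 1.39 (SE 0.05 and 0.09), E2f2 rose by 1.21 (SE 0.08) and Ccne1 by 0.99 (SE 0.05). Cdk6 fell by 1.56 (SE 0.12) and Cdk7, the kinase that activates other CDKs, by 0.85 (SE 0.04). Cdk4 was at 433, 431 and 426 CPM in control and 446, 455 and 473 CPM in etoposide libraries, a log2 fold change of 0.09 (SE 0.03) that 3 of the alternative settings and 5 of the fits without a library did not place past the threshold. Exons of Ccne2, Ccnd2, Cdk4 and Cdk6 overlap genes on the opposite strand.

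Most replication genes rose, and most mitotic genes fell on the TMM scale. Of 38 DNA replication and nucleotide supply genes 31 rose and 2 fell, beside 43.7% and 31.5% of all genes tested, with a median of 0.33 beside 0.14. Pcna, the sliding clamp of DNA polymerases and a known p53 target, was measured at 586, 556 and 585 CPM in control and 878, 872 and 926 CPM in etoposide libraries. Its groups were well apart, with a log2 fold change of 0.63 (SE 0.04). Gins3, a helicase subunit, was measured at 25.7, 24.8 and 29.0 CPM against 46.7, 46.3 and 52.8 CPM. The flap nuclease Fen1 rose by 0.79 (SE 0.03), the licensing factor Cdc6 by 0.70 (SE 0.03) and the reductase subunit Rrm2 by 0.60 (SE 0.04). The genes that fell were Pola1, the catalytic subunit of DNA polymerase alpha (-0.64, SE 0.05), and the thymidine kinase Tk1 (-0.25, SE 0.04), which was at 0.02 with library size alone. Exons of Fen1 and Tk1 overlap genes on the opposite strand.

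Of 34 G2 and mitosis genes tested 25 fell and 3 rose (17 and 13 with library size alone), beside 31.5% and 43.7% of all genes tested, with a median of -0.39. Ube2c, which marks mitotic cyclins for destruction, was measured at 84.7, 91.2 and 91.0 CPM in control and 29.6, 29.8 and 30.1 CPM in etoposide libraries. The kinase gene Plk1 was measured at 57.5, 63.6 and 57.2 CPM against 28.1, 28.9 and 25.7 CPM, and Ccnb2, a mitotic cyclin, at 124, 119 and 124 CPM against 52.0, 56.6 and 58.0 CPM. All of these fell without overlap, by 1.58 (SE 0.04), 1.11 (SE 0.06) and 1.14 (SE 0.05). The spindle midzone gene Prc1 fell by 1.25 (SE 0.04), the checkpoint kinase Bub1b by 1.06 (SE 0.04) and Ccnb1 by 0.93 (SE 0.05). Not all members moved, since Birc5, Bub1, Ndc80, Nek2, Hmmr and Ttk were not past the threshold and Cep55, a gene of abscission, rose by 0.46 (SE 0.05). Mki67, a proliferation marker, was at 908, 929 and 943 CPM in control and 858, 831 and 879.5 CPM in etoposide libraries, a log2 fold change of -0.11 that was 0.16 with library size alone. Exons of Plk1, Prc1 and Ube2c overlap genes on the opposite strand. Knl1 is not in the table under that name and was not analysed here.

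Promoters of the mitotic genes were searched for the cell cycle genes homology region (CHR), the letters TTTGAA on either strand, a known element of such genes. Windows of 300 bases, from 250 before to 50 after a RefSeq transcript start on GRCm38.p6, were at hand for 27025 genes and matched 11863 of the genes tested (77.9%), too few for a share over the genes tested. Of 34 mitotic genes 30 had a window and 21 (70.0%) held the letters, while 5466 (20.2%) of all genes with a window did. Among the 11863 tested genes with a window 1741 held them. The CCAAT letters were in 24 (80.0%) of the 30 and in 41.1% of all. A match is a description and not a site of binding. The windows of Plk1, Ube2c and Ccnb2 follow, each read 5′ to 3′ on the gene's strand with the CHR letters, in either orientation, in capitals. Plk1 lies at chr7:122159185-122159484 on the plus strand, Ube2c at chr2:164769679-164769978 on the plus strand and Ccnb2 at chr9:70421505-70421804 on the minus strand.
Plk1: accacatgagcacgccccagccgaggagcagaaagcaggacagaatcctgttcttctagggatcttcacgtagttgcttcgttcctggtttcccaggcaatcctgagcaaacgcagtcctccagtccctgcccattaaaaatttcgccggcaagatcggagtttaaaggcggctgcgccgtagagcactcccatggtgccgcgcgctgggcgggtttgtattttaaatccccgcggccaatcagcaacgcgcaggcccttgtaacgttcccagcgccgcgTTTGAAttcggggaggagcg
Ube2c: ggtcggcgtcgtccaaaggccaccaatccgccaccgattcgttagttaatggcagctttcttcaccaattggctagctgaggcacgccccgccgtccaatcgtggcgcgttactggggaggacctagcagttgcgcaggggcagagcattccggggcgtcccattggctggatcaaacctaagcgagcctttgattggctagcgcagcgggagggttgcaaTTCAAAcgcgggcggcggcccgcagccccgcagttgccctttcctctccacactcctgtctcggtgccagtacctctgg
Ccnb2: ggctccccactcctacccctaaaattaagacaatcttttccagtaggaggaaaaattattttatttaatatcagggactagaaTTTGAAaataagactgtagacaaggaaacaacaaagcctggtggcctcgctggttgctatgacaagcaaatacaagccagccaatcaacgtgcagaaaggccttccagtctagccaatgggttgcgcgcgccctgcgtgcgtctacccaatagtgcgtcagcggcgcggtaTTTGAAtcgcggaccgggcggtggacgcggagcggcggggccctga

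Histone cluster genes fell nearly throughout. These genes supply new chromatin in S phase. Of 59 tested, 52 fell and 1 rose (44 and 2 with library size alone), beside 31.5% and 43.7% of all genes tested, with a median of -0.99. Hist1h1a (chromosome 13, 23763666 to 23764406), a linker histone, was measured at 843, 823 and 825 CPM in control and 246, 252 and 267 CPM in etoposide libraries. The linker histone Hist1h1b was measured at 727, 728 and 685 CPM against 283, 279 and 303 CPM. Both fell without overlap, by 1.70 (SE 0.05) and 1.31 (SE 0.04), and for Hist1h1a the adjusted p was 2.94e-15 from the same edgeR test (lower in 3 of 3 etoposide libraries). Hist1h1d fell by 1.36 (SE 0.06) and Hist2h4 by 1.40 (SE 0.05). The gene that rose was Hist2h2be, from 2.18, 1.63 and 1.58 CPM to 2.87, 3.51 and 2.97 CPM, a member whose transcript can be polyadenylated. Core histone genes have near-identical copies between which reads can be split, so values of single genes are uncertain. Hist1h4c was measured at 435, 239.6 and 471 CPM against 239, 420.2 and 196 CPM with overlapping groups, and Hist2h3b, with 75.4, 340.0 and 48.3 CPM against 50.7, 32.5 and 75.03 CPM, rested on control replicate 2, without which its log2 fold change was -0.25 and not past the threshold.

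The letters TATAAA of a TATA box, on either strand, were in the windows of 33 (62.3%) of the 53 histone genes that had one, and in 15.7% of all windows' genes. Among the 11863 tested genes with a window 1131 held them. CCAAT was in 45 (84.9%). The windows of the linker histone genes are shown with TATAAA in capitals. Hist1h1a lies at chr13:23763418-23763717 on the plus strand and Hist1h1b at chr13:21780576-21780875 on the minus strand.
Hist1h1a: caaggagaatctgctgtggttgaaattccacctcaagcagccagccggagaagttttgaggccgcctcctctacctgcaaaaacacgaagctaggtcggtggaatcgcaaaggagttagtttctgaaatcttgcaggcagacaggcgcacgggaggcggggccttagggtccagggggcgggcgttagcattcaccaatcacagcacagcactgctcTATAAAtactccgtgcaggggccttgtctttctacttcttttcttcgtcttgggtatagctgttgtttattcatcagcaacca
Hist1h1b: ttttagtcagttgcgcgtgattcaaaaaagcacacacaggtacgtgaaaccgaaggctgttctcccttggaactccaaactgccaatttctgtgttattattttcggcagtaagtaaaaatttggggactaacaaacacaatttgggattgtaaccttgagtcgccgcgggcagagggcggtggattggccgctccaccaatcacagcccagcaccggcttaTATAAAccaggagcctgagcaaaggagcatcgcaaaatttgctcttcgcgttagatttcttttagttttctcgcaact

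Genes of the MiT/TFE family and of mTORC1 control did not move as a group on the TMM scale. Of 29 tested, 13 rose and 10 fell (19 and 5 with library size alone), beside 43.7% and 31.5% of all genes tested. The median of 0.02 became 0.29 with library size alone and -0.01 without Rn45s, Rmrp and Rpph1 in the library sizes. Mitf (chromosome 6, 97807052 to 98021349), a family member that was not inactivated, was measured at 42.9, 42.5 and 44.4 CPM in control and 14.6, 13.1 and 14.2 CPM in etoposide libraries. It was low in all etoposide libraries, with a log2 fold change of -1.63 (SE 0.05, adjusted p = 8.76e-15 from the same edgeR test, lower in 3 of 3). Rragd, a GTPase that recruits mTORC1 to lysosomes and a known TFEB target, was measured at 0.105, 0.109 and 0.0671 CPM against 0.830, 0.751 and 0.814 CPM. It rose from nearly nothing by 3.03 (SE 0.34). Ddit4, a stress inhibitor of mTORC1, rose by 0.88 (SE 0.03), Tsc1 by 0.70 (SE 0.04), the amino acid sensor Slc38a9 by 0.78 (SE 0.10) and Flcn, whose product keeps TFE3 in the cytoplasm, by 0.53 (SE 0.04). Its partner Fnip2 fell by 0.93 (SE 0.04), and Rheb, the activator of mTORC1, by 0.49 (SE 0.04). Exons of Slc38a9 overlap a gene on the opposite strand. Tfec was not tested.

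Lysosomal genes changed little in size. Of 49 tested, 18 rose and 13 fell (38 and 1 with library size alone), beside 43.7% and 31.5% of all genes tested. The median was 0.04 beside 0.14. For the 46 members at 1 CPM or more it was 0.02, beside 0.0006 for all genes at that level. Ctsd, a major protease of lysosomes, was measured at 525, 528 and 532 CPM in control and 540.4, 554 and 579 CPM in etoposide libraries. The groups stood apart by little and the log2 fold change of 0.08 (SE 0.04) was not past the threshold, although it was in 4 alternative settings, at 0.35 with library size alone. Mcoln1, a lysosomal calcium channel, was measured at 18.1, 17.6 and 16.8 CPM against 19.0, 17.6 and 18.4 CPM, with a log2 fold change of 0.06 (SE 0.05) that was past the threshold, at 0.33, with library size alone. The cathepsin genes Ctsf and Ctsh rose, Ctsf from 2.15, 2.04 and 1.68 CPM to 8.19, 8.85 and 8.01 CPM and Ctsh from 3.43, 2.81 and 2.42 CPM to 7.65, 6.04 and 7.72 CPM. Ostm1, which partners a lysosomal chloride transporter, rose by 0.74 (SE 0.04) and Smpd1, the acid sphingomyelinase, by 0.53 (SE 0.05). The proton pump subunits Atp6v1d and Atp6v1a fell by 0.38 (SE 0.05) and 0.36 (SE 0.03), the former not past the threshold, at -0.11, with library size alone, and the protease Ctsb by 0.19 (SE 0.03), at 0.08 with library size alone. Exons of Ctsb and Ostm1 overlap genes on the opposite strand, those of Ctsb the sterol gene Fdft1. Ctss was not tested.

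TFEB and TFE3 bind E-boxes, and the extended E-box TCACGTG was searched on either strand. It was in 1160 (4.29%) of all 27025 genes with a window, and in 766 of the 11863 tested genes with one. Of the 28 MiT/TFE and mTORC1 genes with a window 5 (17.9%) held it. Only 39 of the 49 lysosomal genes had a window, too few for a share over the list, and 13 of the 39 held the extended E-box. The windows of Ctsd and Mcoln1, whose levels barely differed between the groups of DKO MEFs, hold 3 matches each, shown in capitals that join where matches on opposite strands overlap. Ctsd lies at chr7:142387778-142388077 on the minus strand and Mcoln1 at chr8:3500269-3500568 on the plus strand.
Ctsd: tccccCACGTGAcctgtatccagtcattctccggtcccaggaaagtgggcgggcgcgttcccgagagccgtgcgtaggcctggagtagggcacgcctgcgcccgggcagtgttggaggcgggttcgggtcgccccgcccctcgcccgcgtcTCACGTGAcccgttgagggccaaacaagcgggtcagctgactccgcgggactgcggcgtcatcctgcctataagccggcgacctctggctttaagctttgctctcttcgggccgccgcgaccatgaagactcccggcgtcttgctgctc
Mcoln1: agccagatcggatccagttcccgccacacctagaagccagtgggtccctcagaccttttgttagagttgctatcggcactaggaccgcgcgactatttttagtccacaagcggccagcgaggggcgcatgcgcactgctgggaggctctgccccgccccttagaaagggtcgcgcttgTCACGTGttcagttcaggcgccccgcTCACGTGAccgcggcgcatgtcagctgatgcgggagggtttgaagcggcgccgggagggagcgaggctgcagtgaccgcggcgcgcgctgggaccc

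Of 40 autophagy genes 23 rose and 10 fell (30 and 4 with library size alone), with a median of 0.23 beside 0.14 for all genes, of which 43.7% rose and 31.5% fell. Gabarapl1, an ATG8 protein of autophagosomes, was measured at 29.7, 30.8 and 27.0 CPM in control and 82.7, 92.7 and 94.1 CPM in etoposide libraries. It rose by 1.62 (SE 0.05), with no overlap. Atg14, a subunit of the lipid kinase that starts autophagosomes, rose by 1.29 (SE 0.07), Atg12 by 1.01 (SE 0.05) and the starter kinase Ulk1 by 0.90 (SE 0.06). The receptor Sqstm1, or p62, was measured at 669.7, 674 and 654 CPM against 922, 904 and 894 CPM and rose by 0.44 (SE 0.03), and Map1lc3b rose by 0.37 (SE 0.03). Rb1cc1, which encodes the scaffold FIP200, was measured at 619.9, 599 and 622 CPM against 201, 187 and 203 CPM. It fell by 1.64 (SE 0.04) and Uvrag, of a later step, by 1.57 (SE 0.05). Exons of Gabarapl1, Rb1cc1, Uvrag, Sqstm1, Atg14 and Map1lc3b overlap a gene on the opposite strand.

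Early response genes were mostly lower. Of 30 AP-1 and early response genes 22 fell and 7 rose (19 and 8 with library size alone), beside 31.5% and 43.7% of all genes tested, with a median of -0.76 and 13 lower at least 2-fold, as were 7.93% of all genes. Fosl2, a FOS family member of AP-1, was measured at 685, 708 and 650.5 CPM in control and 85.9, 84.9 and 76.1 CPM in etoposide libraries. Every etoposide library lay far below every control, a log2 fold change of -3.05 (SE 0.05, adjusted p = 5.51e-18 from the same edgeR test, lower in 3 of 3). Myc, the growth regulator, was measured at 290.4, 296 and 270.0 CPM against 67.2, 64.5 and 63.9 CPM, and the Krüppel-like factor Klf6 at 1049, 1033 and 999.9 CPM against 199, 192 and 202 CPM. The zinc finger factors Egr2 and Egr3 fell by 2.81 (SE 0.15) and 2.94 (SE 0.09), the orphan receptor Nr4a1 by 2.71 (SE 0.14) and the serum response factor Srf by 1.76 (SE 0.04). Jun fell by 0.36 (SE 0.05), a call that library size alone did not keep. Dusp1, a phosphatase that ends MAP kinase signals, was measured at 17.4, 18.1 and 16.7 CPM against 52.1, 51.9 and 51.8 CPM. It rose by 1.58 (SE 0.05), and Fos rose by 0.48 (SE 0.11). Exons of Jun and Dusp1 overlap genes on the opposite strand.

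Cytokine and NF-kB genes fell with them. Of 28 tested, 19 fell and 4 rose (18 and 7 with library size alone), beside 31.5% and 43.7% of all genes tested, with a median of -1.52. Ccl2 (chromosome 11, 82035571 to 82037453), a monocyte chemokine, was measured at 398, 401 and 396 CPM in control and 44.5, 44.3 and 43.3 CPM in etoposide libraries. The chemokine gene beside it, Ccl7, was measured at 74.2, 72.5 and 67.7 CPM against 4.92, 6.60 and 4.86 CPM. Both were low in every etoposide library, with log2 fold changes of -3.18 (SE 0.05) and -3.71 (SE 0.09). The growth factor Csf1 was measured at 1532, 1540.2 and 1493 CPM against 347, 356 and 340.4 CPM, and Lif, a cytokine of stem cell culture, at 753, 756 and 711 CPM against 213, 218 and 209 CPM. The adhesion gene Icam1 fell by 1.54 (SE 0.11), the chemokine Cxcl1 by 1.63 (SE 0.06), the NF-kB subunit Nfkb1 by 1.37 (SE 0.04) and the feedback gene Tnfaip3 by 1.70 (SE 0.05). Nfkbia, the inhibitor that NF-kB itself induces, rose by 0.32 (SE 0.04). Il6 was measured at 1.10, 0.891 and 1.31 CPM against 1.40, 1.02 and 1.95 CPM, with overlapping groups, and was past the threshold, at 0.77, with library size alone. Exons of Icam1 overlap a gene on the opposite strand. Tnf, Il1b and Cxcl2 were not tested.

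Of 33 interferon-stimulated and MHC class I genes 21 rose and 8 fell (26 and 4 with library size alone), beside 43.7% and 31.5% of all genes tested, with a median of 0.37 beside 0.14. Irf7, a regulator of interferon genes, was measured at 80.9, 76.5 and 80.0 CPM in control and 238, 261 and 251 CPM in etoposide libraries. The classical class I gene H2-K1 was measured at 165, 167 and 167 CPM against 342, 354 and 360.2 CPM, and the peptide transporter Tap1 at 44.9, 41.0 and 43.3 CPM against 106, 111 and 107 CPM. All of these rose without overlap, by 1.66 (SE 0.05), 1.08 (SE 0.03) and 1.33 (SE 0.04). Gbp3 rose by 1.40 (SE 0.06), Oasl2 by 1.14 (SE 0.06) and the ubiquitin-like Isg15 by 0.96 (SE 0.08). Mx1 and Rsad2, antiviral genes of the same programme, fell by 0.93 (SE 0.10) and 0.76 (SE 0.09). Exons of Irf7 and Tap1 overlap genes on the opposite strand, for Tap1 its neighbour Psmb9.

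The integrated stress and unfolded protein response moved apart. Of 26 genes 7 rose and 15 fell (14 and 10 with library size alone, which turned the median from -0.13 to 0.14), beside 43.7% and 31.5% of all genes tested. Chac1, a glutathione-degrading enzyme induced by ATF4, was measured at 252, 260.0 and 247 CPM in control and 58.6, 50.2 and 55.3 CPM in etoposide libraries. Xbp1, a factor of the unfolded protein response, was measured at 209.9, 212 and 202 CPM against 56.4, 52.4 and 52.4 CPM. Both fell without overlap, by 2.21 (SE 0.06) and 1.95 (SE 0.04), as did Atf4 by 1.01 (SE 0.03) and the factor Ddit3, or CHOP, by 1.61 (SE 0.04). Shmt2, an enzyme of serine and glycine metabolism, was measured at 345, 348 and 339 CPM against 767, 773 and 761 CPM, and the asparagine synthetase gene Asns at 293, 289 and 292 CPM against 527, 511 and 555.19 CPM, rises of 1.16 (SE 0.04) and 0.87 (SE 0.03). Psat1 rose by 0.59 (SE 0.03), Phgdh by 0.47 (SE 0.03) and the factor Atf5 by 1.39 (SE 0.04). Exons of Shmt2, Atf5 and Ddit3 overlap genes on the opposite strand.

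Of 19 NRF2 target genes 10 rose and 7 fell (13 and 3 with library size alone), beside 43.7% and 31.5% of all genes tested, with a median of 0.16 beside 0.14. The quinone reductase Nqo1 rose by 0.71 (SE 0.05) and Gclc, of glutathione synthesis, by 0.67 (SE 0.04), while Nfe2l2, which encodes NRF2, fell by 0.55 (SE 0.04) and the reductase Gsr by 0.55 (SE 0.04). Slc7a11, the cystine transporter, fell by 0.23 (SE 0.06) but at 0.05 with library size alone.

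Sterol and fatty acid synthesis genes fell nearly as a block. Of 27 genes 25 fell and 1 rose, beside 31.5% and 43.7% of all genes tested, with a median of -1.54 and 19 lower at least 2-fold, as were 7.93% of all genes. Insig1 (chromosome 5, 28071363 to 28078662), which retains SREBP factors in the endoplasmic reticulum, was measured at 367, 356 and 351 CPM in control and 59.1, 51.1 and 53.8 CPM in etoposide libraries. The control libraries were about alike and every etoposide library far below them, with a log2 fold change of -2.71 (SE 0.06, adjusted p = 4.31e-17 from the same edgeR test, lower in 3 of 3). The desaturase gene Scd2 was measured at 758, 757 and 792 CPM against 153, 157 and 138 CPM. Hmgcs1 fell by 2.16 (SE 0.04), Fdft1 by 2.01 (SE 0.05) and Srebf2, the factor that drives the pathway, by 1.45 (SE 0.06). Mvd, which rose by 0.12 (SE 0.05), was not past the threshold in 10 of 17 other settings. Exons of Fdft1 and Hmgcs1 overlap genes on the opposite strand.

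Circadian clock genes were mostly lower. Of 18 genes 15 fell and 2 rose (12 and 4 with library size alone), beside 31.5% and 43.7% of all genes tested, with a median of -0.74. Bhlhe40, a repressor in the clock, was measured at 273, 286 and 279 CPM in control and 27.5, 25.8 and 23.0 CPM in etoposide libraries, and the period gene Per2 at 31.6, 37.0 and 33.2 CPM against 4.37, 4.22 and 3.81 CPM. Both lost most of their level, with log2 fold changes of -3.46 (SE 0.06) and -3.06 (SE 0.09). Nfil3 fell by 2.50 (SE 0.04) and Dbp by 2.38 (SE 0.10), while Cry1 fell by 0.13 (SE 0.04) and Arntl, the core activator BMAL1, by 0.22 (SE 0.05), but these stood at 0.14 and 0.05 with library size alone. The samples were taken at a single time of treatment, so a shift in phase and a change in level cannot be told apart. Exons of Dbp, Bhlhe40 and Arntl overlap genes on the opposite strand.

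Matrix genes fell. Of 44 genes 37 fell and 3 rose (32 and 6 with library size alone), beside 31.5% and 43.7% of all genes tested, with a median of -0.83. Thbs1 (chromosome 2, 118111876 to 118127133), a matrix glycoprotein and the transcript with the largest fall in CPM, was measured at 21086, 22488 and 21767 CPM in control and 1574, 1463 and 1484 CPM in etoposide libraries. All etoposide libraries lay far below the controls, a log2 fold change of -3.85 (SE 0.05, adjusted p = 4.27e-19 from the same edgeR test, lower in 3 of 3). The collagen genes Col1a1 and Col5a2 were measured at 2135, 2289.7 and 2100.3 CPM against 1079, 1108 and 954 CPM and at 6356, 6319 and 6453 CPM against 2679, 2626 and 2838 CPM. Fn1, which encodes fibronectin, fell by 0.81 (SE 0.06), the protease inhibitor Timp3 by 2.05 (SE 0.04) and the protease Mmp14 by 1.15 (SE 0.04). Timp1, an inhibitor of the same family, was measured at 426, 428 and 460.3 CPM against 573, 568 and 624 CPM and rose by 0.43 (SE 0.04). Exons of Thbs1, Fn1 and Timp3 overlap genes on the opposite strand.

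All 28 genes of the SRF, YAP and contractile list fell (26 with library size alone), 16 of them at least 2-fold, beside 31.5% and 7.93% of all genes tested, with a median of -1.03. These genes build and anchor actin filaments or answer to stretch. Vcl, which encodes vinculin at focal adhesions, was measured at 670.1, 686 and 685 CPM in control and 133, 132 and 121 CPM in etoposide libraries. The YAP targets Ctgf and Cyr61 were measured at 2253, 2308 and 2033 CPM against 713, 696 and 693 CPM and at 1657, 1522 and 1293 CPM against 738, 754 and 695 CPM. No etoposide library reached a control library in any of the 3 genes, with log2 fold changes of -2.41 (SE 0.04), -1.65 (SE 0.06) and -1.03 (SE 0.07). The myosin gene Myh9 fell by 2.01 (SE 0.04), the factor Tead1 by 2.20 (SE 0.09) and Actb, cytoplasmic actin, by 0.56 (SE 0.04). Exons of Vcl and Ctgf overlap genes on the opposite strand.

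Most ribosomal protein genes rose slightly. Of 79 ribosomal protein genes tested 58 rose and none fell, beside 43.7% and 31.5% of all genes tested, with a median of 0.21 beside 0.14, while all 21 others were not past the threshold. Rplp0, a stalk protein of the ribosome, was measured at 2441, 2404 and 2212 CPM in control and 2963, 2825 and 3129 CPM in etoposide libraries. Rps20 rose by 0.54 (SE 0.03) and Rpl15 by 0.75 (SE 0.05). Processed copies of these genes can take up their reads, and the counts of some members were erratic between replicates. Rps23 was measured at 88.5, 54.2 and 6.39 CPM in control and 7.14, 194 and 252 CPM in etoposide libraries, which overlap widely, and it passed the threshold only without etoposide replicate 1, at 2.14. Of 15 Snhg and Gas5 host genes, whose introns hold small nucleolar RNAs, 9 rose and 2 fell, beside 43.7% and 31.5% of all genes tested, with a median of 0.34 beside 0.14. Snhg3 was measured at 2.99, 3.42 and 3.59 CPM against 8.68, 8.41 and 8.17 CPM and Snhg8 at 18.1, 16.9 and 16.3 CPM against 31.8, 32.8 and 37.2 CPM, both higher in every etoposide library. Exons of Snhg3 and Snhg8 overlap small nucleolar RNA genes on the same strand, and those of Rpl15 a gene on the opposite strand. Of 317 Zfp zinc finger genes 141 rose and 89 fell (216 and 40 with library size alone), beside 43.7% and 31.5% of all genes tested. Their median was 0.14, as over all genes. For the 300 at 1 CPM or more it was 0.11, beside 0.0006 for all genes at that level. Of the structural RNAs, Rn45s, the ribosomal precursor left after depletion, was measured at 21542, 22044 and 18552 CPM against 29136, 33465 and 27906 CPM and rose by 0.54 (SE 0.10), and it took 1.91, 1.95 and 1.66% of the counts in control and 3.16, 3.58 and 2.98% in etoposide libraries. Depletion and cellular level cannot be told apart for this transcript. Other rises in CPM were those of the elongation factor Eef1a1, from a mean of 9948 to 11852 CPM, and of the chaperone Hspa8, from 1494 to 2904 CPM.

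Among genes with a mean of 10 CPM or more over the 6 libraries, Fam212b had the largest rise by ratio. Fam212b was measured at 1.43, 1.56 and 1.59 CPM in control and 41.9, 41.6 and 44.5 CPM in etoposide libraries, a log2 fold change of 4.80 (SE 0.07, adjusted p = 4.27e-19 from the same edgeR test, higher in 3 of 3). The receptor Notch3 was measured at 1.14, 1.20 and 1.19 CPM against 27.2, 27.9 and 25.1 CPM, and Mmp15, a membrane-bound protease, at 1.35, 1.35 and 1.12 CPM against 25.8, 24.4 and 22.0 CPM. These genes were barely transcribed in every control library and well transcribed in every etoposide library. The WNT ligands Wnt11 and Wnt9a rose by 2.89 (SE 0.08) and 2.85 (SE 0.07). Dgat2, which makes triglycerides, was measured at 10.6, 9.55 and 10.9 CPM against 52.7, 50.3 and 52.6 CPM, and Cth, an enzyme of cysteine synthesis, at 11.1, 11.9 and 12.7 CPM against 55.8, 56.6 and 59.4 CPM. Psrc1, a spindle gene, rose by 2.90 (SE 0.10) and the unannotated transcript 9230114K14Rik by 3.53 (SE 0.08).

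Among genes with a mean of 10 CPM or more over the 6 libraries, Rgs16 had the largest fall. Rgs16 (chromosome 1, 153740349 to 153745468), which ends signals of G protein-coupled receptors, was measured at 37.0, 37.9 and 35.6 CPM in control and 1.32, 1.08 and 1.83 CPM in etoposide libraries. It was nearly lost in every etoposide library, with a log2 fold change of -4.66 (SE 0.11, adjusted p = 3.32e-16 from the same edgeR test, lower in 3 of 3). Rspo2, which strengthens WNT signals, was measured at 149.9, 144 and 145 CPM against 6.11, 8.62 and 6.75 CPM, and the growth factor Pdgfb at 526, 539 and 493 CPM against 32.5, 32.0 and 31.2 CPM. Tgfb2, a TGF-beta ligand, fell by 3.50 (SE 0.07), Lrrc32, which holds latent TGF-beta, by 3.65 (SE 0.11) and Has2, the hyaluronan synthase, by 3.51 (SE 0.04). The matrix protease Adamts1 fell by 3.86 (SE 0.08), the pseudokinase Trib2 by 3.29 (SE 0.09) and Wisp1, a matricellular protein, by 3.28 (SE 0.03). Exons of Rgs16, Has2, Tgfb2, Notch3 and Wnt11 overlap a gene on the opposite strand.

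Whether the DKO response differed from that of Null MEFs was tested by the interaction of genotype and treatment. It lay above 0 in 4507 genes (29.6%) and below 0 in 3719 (24.4%), and by at least 2-fold in 639 and 1280 genes. The split turned with scaling, to 3796 above and 4192 below with DESeq2 size factors and 5736 above and 3055 below with library size alone. In a new fit of genes averaging 1 CPM or more it was 3816 above and 3870 below. The direction over all genes thus rests on the scaling and on the genes fitted. The responses correlated across the 15220 genes at 0.762 as a description, with no library in common, a shared gene set and genes that are not independent replicates. Of genes past the threshold in both genotypes, 4635 rose in both and 3690 fell in both, 822 rose in DKO and fell in Null MEFs and 536 fell in DKO and rose in Null MEFs. All 822 and all 536 were past the threshold of the interaction, which opposite calls in the same fit nearly fix in advance.

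The p53 targets rose less in DKO than in Null MEFs. The interaction was below 0 in 30 of the 40 and above 0 in 3, with a median response of 0.78 in DKO and 1.99 in Null MEFs. Pmaip1 was measured in Null MEFs at 32.4, 33.5 and 27.1 CPM in control and 279, 293 and 271 CPM in etoposide libraries, against 213 to 227 CPM in all DKO libraries. Its interaction was -3.17 (SE 0.08, adjusted p = 9.95e-15 from the same edgeR test). Fas rose in Null MEFs, by 2.15, from 22.3, 18.8 and 17.8 CPM to 84.0, 92.1 and 85.7 CPM, and fell in DKO MEFs, with an interaction of -3.03 (SE 0.09). Ccng1 rose in both, with an interaction of -1.91 (SE 0.05). For Xpc, Ddb2 and Eda2r the interactions of -0.04, -0.03 and -0.06 were not past the threshold, and Tigar, Plk3 and Rrm2b lay above 0.

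**Figure D4:**
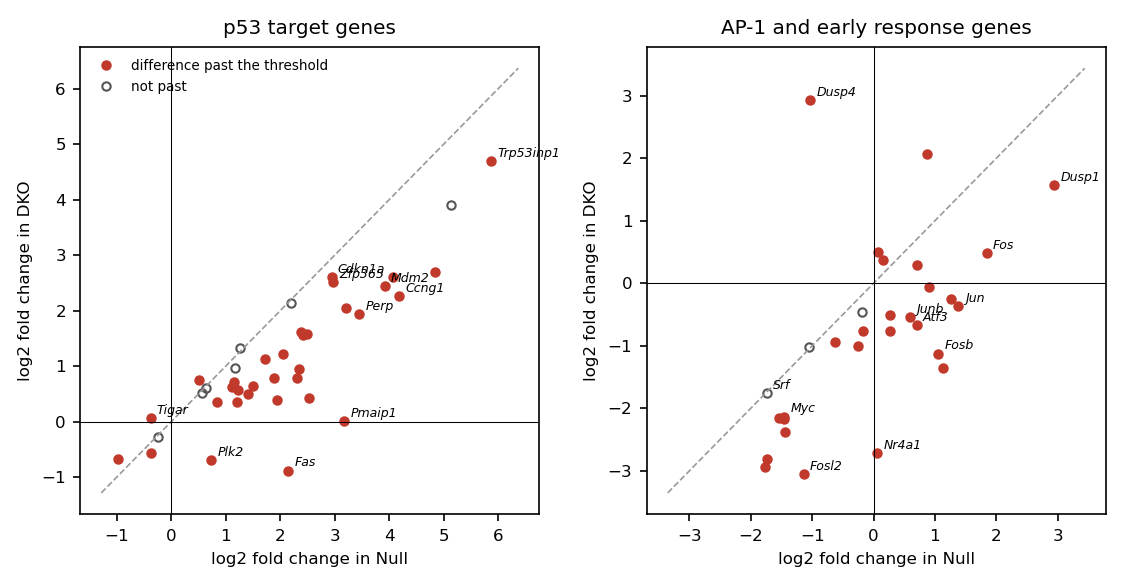
Log2 fold change after etoposide in DKO MEFs (vertical axis) against Null MEFs (horizontal axis) for p53 targets and for AP-1 and early response genes, with points filled where the interaction is past the threshold. Of the p53 targets 30 lie below and 3 above the line of equal response by that test, and of the 30 early response genes 23 lie below and 4 above.

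On the TMM scale other lists had interactions on either side of 0, against 29.6% above and 24.4% below over all genes. Of the 30 early response genes 23 had an interaction below 0 and 4 above. Jun was at 141, 142 and 130.2 CPM in Null controls and 358, 361 and 359 CPM in Null etoposide libraries, a rise of 1.38, while it fell in DKO MEFs, with an interaction of -1.75 (SE 0.07). Of the 28 NF-kB and cytokine genes 18 were below and 4 above 0, Icam1 with an interaction of -3.11 (SE 0.21), and all 7 CDK inhibitors were below 0. Of 49 lysosomal genes 22 were below and 5 above 0. Their median interaction of -0.15 was -0.21 with DESeq2 size factors and -0.04 with library size alone. Ctsd, at 391.96, 380.0 and 405 CPM in Null controls and 763, 779 and 837 CPM in Null etoposide libraries, had an interaction of -0.94 (SE 0.05), and Ctsf, which rose in both, -2.14 (SE 0.15). Mitf rose in Null MEFs, by 1.35, and fell in DKO MEFs, with an interaction of -2.98 (SE 0.08). Of 20 death receptor and caspase genes 12 were below and 3 above 0, of 18 clock genes 11 below and 5 above, and of 33 interferon and class I genes 14 above and 10 below. Interactions above 0 were the more frequent in histone genes, with 21 above and 1 below, where the DKO median of -0.99 was closer to 0 than the Null median of -1.31. They were also the more frequent in the Snhg list (11 above, 1 below), the integrated stress list (16 above, 5 below), MiT/TFE and mTORC1 genes (17 above, 4 below) and double-strand break repair (13 above, 5 below).

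DKO and Null medians were -1.54 and -1.44 for sterol genes (9 interactions above 0, 11 below), -0.83 and -0.80 for matrix genes (16 and 11), -1.03 and -0.79 for SRF and YAP genes (4 and 10), -0.39 and -0.32 for mitotic genes (10 and 9), 0.21 and 0.27 for ribosomal proteins (8 and 9) and 0.23 and 0.08 for autophagy genes (19 and 12). For G1 genes the interactions were 8 above and 8 below, for sensors 9 and 4, for replication genes 14 and 7, for p53 family genes 4 and 5, for topoisomerases 1 and 3, for pro-apoptotic genes 2 and 5, for anti-apoptotic genes 1 and 2, for NRF2 targets 3 and 7 and for Zfp genes 80 and 73. Some list medians near 0 changed sign with scaling. With DESeq2 size factors the median interactions of the G1 and replication lists each went from 0.04 to -0.02. Among single genes with at least 10 CPM over the 12 libraries, those far below 0 included Evpl, a cornified envelope gene (-5.49, SE 0.46), Rgs16 (-4.47, SE 0.17), Rasl11a (-4.16, SE 0.12), Thbs2 (-4.07, SE 0.12) and Gas1 (-3.90, SE 0.08). Evpl was at 0.406, 0.337 and 0.252 CPM in DKO controls and 2.45, 1.45 and 2.19 CPM in DKO etoposide libraries, against 88.5, 77.7 and 81.9 CPM in Null etoposide libraries. Evpl thus reaches 10 CPM over the 12 libraries only through the Null libraries, and its place is shaped by that selection. Those furthest above 0 were Hoxb9, Lama2, Tenm3, Mmp16, Tspyl4 and Slco2a1, of which all but Tspyl4 were at or under 3 CPM in every DKO library. Such genes reach 10 CPM over the 12 libraries only through the Null libraries, so their place at this end is shaped by that selection. Wnt11 (2.61, SE 0.10) and Dgat2 (2.22, SE 0.08) rose far more in DKO than in Null MEFs.

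**Figure D5:**
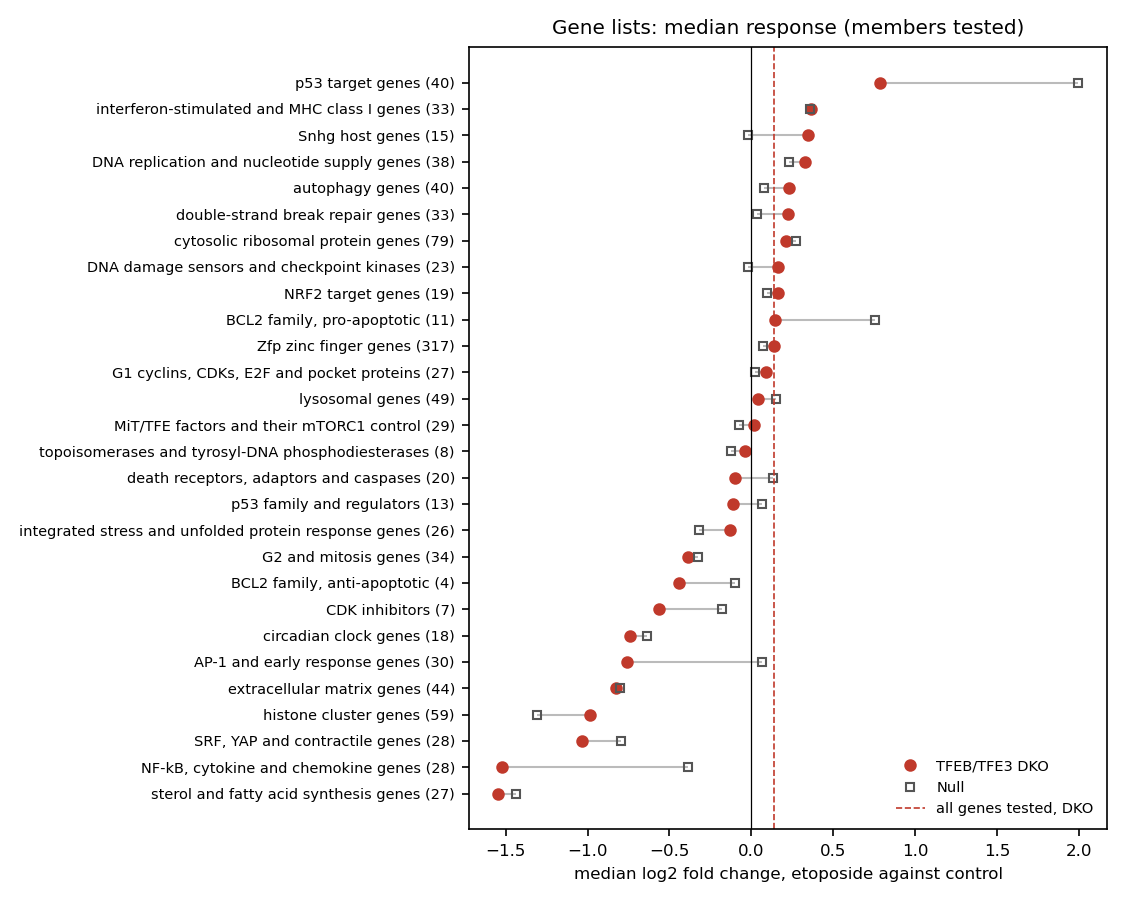
Median log2 fold change after etoposide of 28 gene lists in DKO MEFs (circles) and Null MEFs (squares), with a dashed line at the median of all genes in DKO MEFs, 0.14. The list medians run from -1.54 for sterol genes to 0.78 for p53 targets in DKO MEFs, and with library size alone those of the p53 family, topoisomerase, death receptor and stress response lists change sign.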

How the data were processed

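RNA was sequenced as stranded paired-end libraries after rRNA depletion, from RNA made with either of 2 kits according to the paper. The authors deposited a table of counts per gene and library, and per the labels reads were aligned to mm10 with HISAT2 and counted with featureCounts (the paper names HTSeq), whose versions are not given in the sources used here. The 5 summary lines of the table were kept out of library sizes and tests. In the DKO libraries 57.6 to 63.1% of all lines' counts fell on genes, with 45577023 to 104120871 counts per library.

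Counts were analysed with edgeR 4.0.16 in R 4.3.3, with a filter for low counts by group, TMM scaling and a quasi-likelihood fit of 4 groups in all 12 libraries, and Benjamini-Hochberg adjustment over 15220 genes at a threshold of 0.05. SE is the absolute log2 fold change divided by the square root of the F statistic. The code was tested on simulated data. Alternatives used DESeq2 1.42.0, limma 3.58.1, other scalings and filters, thinning, a replicate block and fits that leave out each library. A floor of 3 counts in each control library bounded the stated folds of Zfp423 and Ppp2r2c and the second median of the low genes. Genes counted only after etoposide were tallied from 1 count on.

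Genes were named by rule: Tfeb and Tfe3, the 15 largest rises and falls without overlap at a mean of at least 10 CPM, the 5 largest CPM gains and losses, the extremes of each list and of the interaction, and further genes chosen after the values were seen. Members and lists were chosen with earlier results of these data known. Mitochondrially encoded genes have 0 members in the table and were not analysed here. Results of some genes are not reported here.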

Additional observations from a re-analysis of the deposited data

Results flagged for a closer look

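The responses to etoposide differed between DKO and Null MEFs in 8226 genes by the interaction test. The scalings tried moved the median interaction by at most 0.10. Whether the lines differ in more than the targeted genes was not tested.

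The genes below passed the threshold in both genotypes with opposite directions, and what flagged each is its response in DKO minus its response in Null MEFs, in log2. Those that fell in DKO and rose in Null MEFs were Thbs2 (-4.07), Gas1 (-3.90), Icam1 (-3.11), Fas (-3.03), Mitf (-2.98), Nr4a3 (-2.48), Bmf (-2.24), Cxcl1 (-2.22), Fosb (-2.18), Nr1d1 (-2.02), Cyr61 (-1.83), Jun (-1.75), Plk2 (-1.43), Atf3 (-1.38), Mmp14 (-1.25), Junb (-1.14) and Ctsb (-0.34). Those that rose in DKO and fell in Null MEFs were Hspa5 (0.43), Phgdh (0.58), H2afx (0.74), Sqstm1 (0.80), Gas5 (0.93), Asns (1.01), Psat1 (1.07), Slco2a1 (2.79), Tenm3 (3.26), Lama2 (3.46), Dusp4 (3.96) and Hoxb9 (3.97). Hoxb9, Lama2, Tenm3 and Slco2a1 stayed at or under 3 CPM in every DKO library. Dusp4 was low there as well, with an average under 1 CPM over the DKO libraries. For Ctsb, Jun and Nr1d1 the DKO call rests on the scaling. The Null calls under other scalings are not reported here.

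The share of all lines on no feature, which no comparison uses, had a mean of 21.9% in DKO etoposide libraries, above the 20.6% of the DKO control libraries. Its origin was not tested. Groups of 3 libraries were not tested for outliers.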

How the results depend on the processing

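Over 309 named genes and 17 other settings (11 alternatives and 6 fits that each leave out a DKO library), 5169 of 5246 pairs of gene and setting kept the call, 40 were weaker, 26 stronger and 11 reversed, in 32 genes. A reversal is a change of sign in a gene past the threshold in either fit, so changes of sign in genes past it in neither are not among them, as in Mmp16, Chek1 and Pmaip1 (0.34, 0.03 and 0.01, at lowest -0.14, -0.04 and -0.04). The 11 came with library size alone, which shifts log2 fold changes up: Kat5 0.0192, Rad9a 0.22, Foxo3 0.27, Mcl1 0.24, Mki67 0.16, Ctsb 0.0846, Slc7a11 0.0473, Arntl 0.0539, Cry1 0.14, Mdm4 0.0481 and Tk1 0.0201. The genes at least 2-fold higher, 2718, became 1012 in a new fit of the 12026 genes averaging 1 CPM or more over the 12 libraries and 1766 with only the 6 DKO libraries, settings that test fewer low genes. The genes at least 2-fold lower, 1207, became 804 with library size alone. The anti-apoptotic genes past the threshold, 2, became 4 there. The difference in median log2 fold change between the longest and the shortest genes, -0.59, became -0.98 when taken, without a new fit, over genes averaging 1 CPM or more in the 6 DKO libraries. Of 476 pairs of list and setting, 475 kept a number of members past the threshold within 1.5 times that of the report, which says nothing of their direction.

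Leaving out each DKO library in turn left 10732 to 11265 genes past the threshold, 2512 to 2795 at least 2-fold higher and 1204 to 1263 at least 2-fold lower, and leaving out each of the 12 libraries left 7655 to 8026 past the interaction threshold. Calls of Cdk4, Mvd, Tef, Top3b, Hist2h3b, Tnfsf10, Rmrp, Mcl1, Hist1h4c, Il6, Rps23 and Rpl3 changed without some library, and the cause was not tested. With replicate number as a block 11416 genes passed, and 8208 for the interaction. What same-numbered samples share beyond the number is not known. Between DKO control and etoposide libraries the correlations of same-numbered deviations were 0, 0.043 and 0.008. Such values cannot show whether these samples shared a culture or a day. A legacy quasi-likelihood fit, chosen after seeing the data, gave 11459 and 8310. The depth ratio of 2.28 limits genes of few counts, and 10709 of 14487 genes passed after thinning.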
